A study of Homo sapiens with 8 samples.

Results

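Long noncoding RNAs (lncRNAs) with a known place in cancer were followed in 2 clear cell renal cell carcinoma (ccRCC) cell lines. The 9 lncRNAs were MALAT1, NEAT1, TUG1, H19, MEG3, PVT1, CRNDE, MIR22HG and MANCR, taken by name from the 34754 gene symbols that the RefSeq and GENCODE entries of the deposited tables gave. MANCR was included because 1 non-targeting control library of each line stood far above the others, so its values are given as a description without a test. The remaining lncRNAs were chosen by name, with earlier results of these data known.

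The experiment asked which transcripts change when SLINKY, a lncRNA of chromosome 7, is knocked down. A498 cells were grown in DMEM and 786-O cells in RPMI-1640, so that line and medium cannot be told apart. Both are established lines that lack functional VHL. Each line gave 4 libraries: NTC 1 and NTC 2, from cells that received a non-targeting control pool, and 1 library for each of the siRNAs against SLINKY, called siRNA 1 and siRNA 2, all at 50 nM for 16 h by the labels. The labels call every siRNA a pool, while the study's methods describe single siRNAs against SLINKY and a later time for the isolation of RNA. No untransfected cells were analysed here, so every library carries a transfected siRNA. The labels do not say whether the libraries of a group came from separate cultures, and the p-values below then measure only the spread between these libraries, which may be technical.

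Transcript levels are given as FPKM, mapped fragments scaled to the length of the transcript and to the depth of the library. That depth, estimated from entries with a single read, ranged from about 25100000 to 64500000 reads. The target itself, SLINKY, went in A498 from 14.6 and 16.1 FPKM (NTC) to 1.64 FPKM (siRNA 1) and 3.01 FPKM (siRNA 2), and in 786-O from 1.45 and 1.39 FPKM (NTC) to 0.0569 FPKM (siRNA 1) and 0.594 FPKM (siRNA 2). PAX8, a renal lineage factor, lay between 39.2 and 48.1 FPKM in the 8 libraries. The leukocyte markers PTPRC and CD3E were listed at 0 in all 8, and the summed endothelial markers did not exceed 0.0548 FPKM. Of the fibroblast markers only COL1A1 had a mean of 1 FPKM or more, at 2.87 to 3.42 FPKM in A498, and COL3A1 was listed at 0. The ccRCC marker CA9 was low, at 0.293 to 0.559 FPKM in A498 and at most 0.0229 FPKM in 786-O.

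LncRNAs act as RNA, and the ones studied here work in several ways. MALAT1 and NEAT1 are abundant nuclear RNAs transcribed next to each other on chromosome 11. MALAT1 gathers at nuclear speckles, and NEAT1 is the scaffold of paraspeckles. TUG1, CRNDE and H19 have been tied to polycomb repressive complex 2, the enzyme complex that methylates histone H3 at lysine 27. PVT1 lies beside MYC and is amplified with it in many tumors. H19 and MEG3 are imprinted and expressed from the maternal chromosome, and MIR22HG is the host transcript of the tumor-suppressive microRNA miR-22. MANCR is a lncRNA of chromosome 10 named for its link to mitosis.

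Sequences that mark these transcripts are given for orientation. MIR22HG and H19 are precursors of microRNAs, and the mature sequences are shown because a change of the host would bear on them. They were read from RefSeq (GRCh38.p14), are written 5′ to 3′, and carry their seeds (bases 2 to 8) in capitals.
hsa-miR-22-3p, chr17:1713914-1713935, minus strand: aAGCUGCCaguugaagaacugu
hsa-miR-22-5p, chr17:1713952-1713973, minus strand: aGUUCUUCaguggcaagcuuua
hsa-miR-675-3p, chr11:1996768-1996787, minus strand: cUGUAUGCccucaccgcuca
hsa-miR-675-5p, chr11:1996800-1996822, minus strand: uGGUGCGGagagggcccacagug
No 2 of these 4 sequences share a seed. The entries of the microRNA genes inside the lncRNAs (MIR22, MIR675, MIR770 and MIR1204 to MIR1208) were listed at 0 in all 8 libraries, so the host transcripts were measured and the mature microRNAs were not.

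MALAT1 ends without a poly(A) tail, in a genome-encoded A-rich stretch that folds into a triple helix, followed by a small tRNA-like RNA that is cut off. The stretch is shown because the ending decides how such an RNA enters a library, and the kit's selection step is not given in the sources used here. Its longest run of A (13 bases, in capitals) lay 359 bases before the end of the deposited MALAT1 entry (GRCh37, chr11:65273509-65273641, plus strand).
MALAT1 A-rich end: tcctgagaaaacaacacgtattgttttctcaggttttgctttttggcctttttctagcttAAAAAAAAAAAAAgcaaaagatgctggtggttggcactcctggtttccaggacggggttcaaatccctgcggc

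The deposited tables list each locus more than once, as RefSeq transcripts, GENCODE lncRNA genes and assembled lncRNAs, and Cufflinks divides the reads of overlapping entries between them. A level therefore depends on which entries are counted. The RefSeq entries of a symbol were summed first, then RefSeq and GENCODE entries of the same symbol, and then all noncoding entries at the locus, here called the locus sum. The RefSeq entries alone held between 0.0% and 0.0516% of the locus sum for MALAT1 and between 0.0% and 0.495% for PVT1. CRNDE's RefSeq entries were listed at 0 in all 8 libraries. NEAT1's RefSeq entry held 11.1% to 18.6% and those of MIR22HG 19.3% to 45.1%. TUG1 and H19 had no RefSeq entry that matched the symbol table, and the GENCODE entry of TUG1 held 1.13% to 8.32% of its locus sum.

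The MANCR locus is given entry by entry. Its RefSeq entry (NR_024475) spans chr10:4692377-4720262 on the minus strand in hg19. In A498 the RefSeq entry was 0.793 FPKM in NTC 1, 25.4 FPKM in NTC 2, 0.921 FPKM with siRNA 1 and 1.58 FPKM with siRNA 2. In 786-O it was 0.626 FPKM in NTC 1, 11.5 FPKM in NTC 2, 0.696 FPKM with siRNA 1 and 0.824 FPKM with siRNA 2. NTC 2 was thus 16.1-fold above the next highest library in A498 and 14.0-fold in 786-O, which are the values that chose this gene.

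An assembled entry begins 1 base away from the RefSeq entry and ends at the same base. It moved the opposite way in the same libraries, at 23.3, 0.0281, 23.6 and 23.6 FPKM in A498 (NTC 1, NTC 2, siRNA 1, siRNA 2) and at 10.8, 0.28, 10.0 and 11.5 FPKM in 786-O. Its deposited status was LOWDATA in all 8 libraries, the mark Cufflinks gives to a locus it judges too complex or too shallowly sequenced to estimate. The library that was high in 1 entry was therefore the library that was near 0 in the other. The sum of both entries was 24.1, 25.5, 24.5 and 25.2 FPKM in A498 and 11.4, 11.8, 10.7 and 12.3 FPKM in 786-O. No library stood apart in the sum. The part of the division of reads in the NTC 2 values was not tested.

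**Figure D1:**
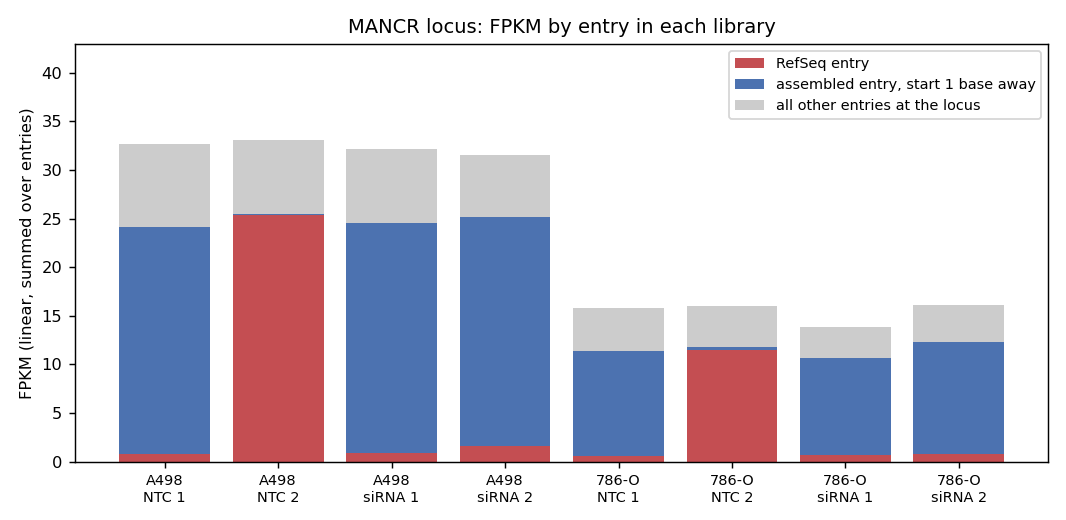
MANCR locus by entry in the 8 libraries, as stacked bars of FPKM on a linear axis; red is the RefSeq entry, blue the assembled entry whose start differs by 1 base, and grey the other entries at the locus. The red part is large only in NTC 2 of each line (25.4 and 11.5 FPKM), while the full bars stay between 31.6 and 33.1 FPKM in A498 and between 13.9 and 16.1 FPKM in 786-O.

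The MANCR locus sum over 8 entries was 32.7, 33.1, 32.1 and 31.6 FPKM in A498 and 15.8, 16.0, 13.9 and 16.1 FPKM in 786-O, in the same order of libraries. The lines did not overlap, and the mean in A498 was 2.09 times that in 786-O. The spread of the locus sum on the log2 scale (SD, n = 4) was 0.0286 in A498 and 0.0996 in 786-O, beside a median over all tested genes of 0.0936 and 0.088. The GENCODE entry of MANCR, listed as RP11-117P22.1, was 1.80 to 2.501 FPKM in A498 and 1.93 to 2.15 FPKM in 786-O, and there the lines overlapped. The antisense gene LINC00705 (chr10:4697619-4724914, plus strand) overlaps MANCR, and since strand is not stated its reads cannot be told apart from those of MANCR. KLF6, the listed coding neighbour, is not adjacent: it lies at chr10:3818188-3827473, and the MANCR gene at chr10:4623487-4720408. KLF6 was 12.6 to 14.4 FPKM in A498 and 22.0 to 24.3 FPKM in 786-O. A relation between KLF6 and MANCR was not tested.

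At the TUG1 locus, too, entries moved against each other between libraries. The longer of them spans chr22:31365262-31375327 in hg19 and was 6.07, 4.77, 5.43 and 0.429 FPKM in A498 (NTC 1, NTC 2, siRNA 1, siRNA 2) and 9.92, 5.05, 10.8 and 10.6 FPKM in 786-O. The shorter, chr22:31368031-31375337, was 0.243, 1.12, 1.31 and 5.99 FPKM in A498 and 1.81, 5.37, 2.19 and 1.44 FPKM in 786-O. The library lowest in the longer entry was the highest in the shorter entry in each line, siRNA 2 in A498 and NTC 2 in 786-O. Their sum ranged from 5.89 to 6.74 FPKM in A498 and from 10.4 to 13.0 FPKM in 786-O.

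**Figure D2:**
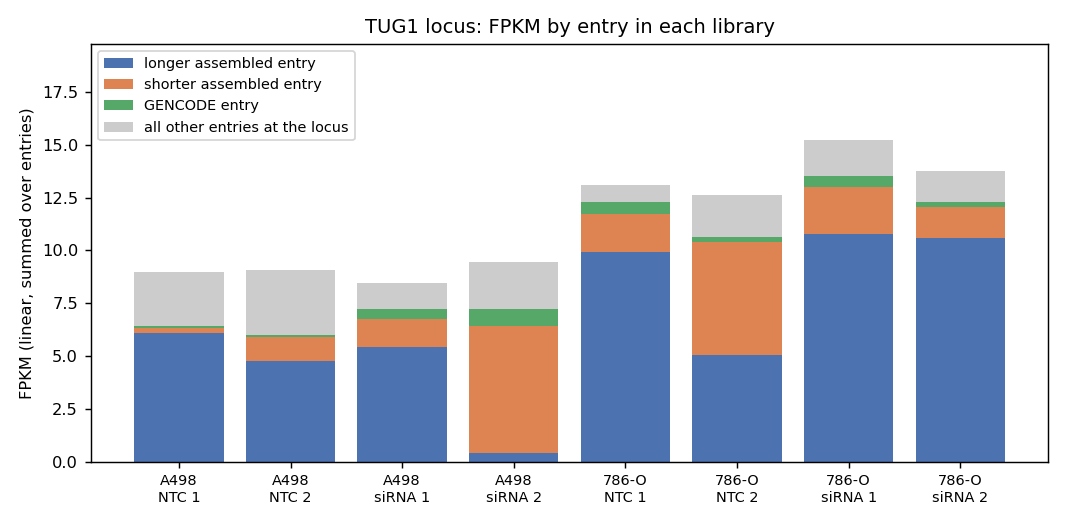
TUG1 locus by entry in the 8 libraries, as stacked bars of FPKM on a linear axis; blue and orange are the longer and the shorter assembled entry, green the GENCODE entry and grey the other entries. The orange part is largest in A498 with siRNA 2 (5.99 FPKM) and in 786-O NTC 2 (5.37 FPKM), while the full bars stay at 8.47 to 9.46 FPKM in A498 and 12.6 to 15.2 FPKM in 786-O.

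The next question was how the lncRNAs differ between A498 and 786-O. By locus sum, PVT1 was the highest of the 9 in both lines, and MEG3 was close to 0 in both. The order is that of the deposited values and need not be that of the RNAs in the cells. MALAT1 ends without a poly(A) tail, and the selection step of the kit is not given. The order of the mean locus sums in A498 was PVT1 (191 FPKM), MANCR (32.4), CRNDE (20.8), NEAT1 (19.6), MALAT1 (14.3), TUG1 (8.99), MIR22HG (8.24), H19 (4.48) and MEG3 (0.00842). CRNDE overlapped NEAT1, NEAT1 overlapped MALAT1, and TUG1 overlapped MIR22HG among the A498 libraries, while the other neighbours did not overlap. In 786-O the order was PVT1 (88.6 FPKM), CRNDE (49.7), NEAT1 (27.7), MALAT1 (17.6), MANCR (15.5), TUG1 (13.7), MIR22HG (6.74) and MEG3 (0.00776), with H19 listed at 0. There NEAT1 overlapped MALAT1, MALAT1 overlapped MANCR, and MANCR overlapped TUG1.

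**Figure D3:**
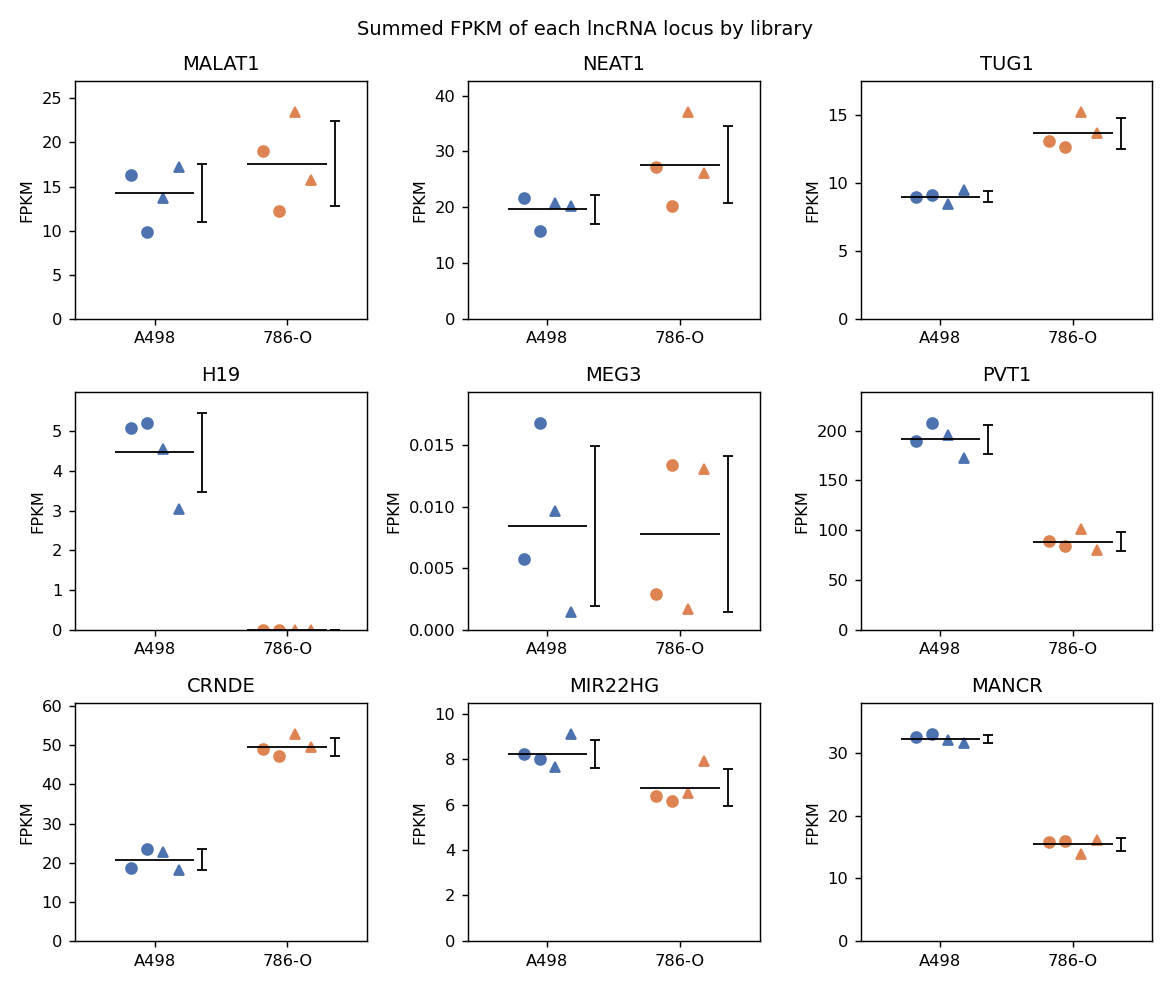
Locus sums of the 9 lncRNAs in FPKM, with a linear axis from 0 for each gene; circles are NTC libraries and triangles SLINKY siRNA libraries, blue is A498 and orange 786-O, and the line and bar are the mean and SD of 4 libraries. PVT1 and MANCR are higher in A498, TUG1 and CRNDE are higher in 786-O, H19 is at 0 in 786-O, and the MEG3 axis ends below 0.02 FPKM.

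The lines were compared with limma, using all 8 libraries and the knockdown as a covariate, on log2 of FPKM plus 0.1, with Benjamini-Hochberg adjustment over all genes tested. Differences are log2 values of A498 minus 786-O. Among RefSeq sums, 80.5% of 11367 genes passed an adjusted p of 0.05, and 1 of the 2 lncRNAs that could be tested there passed. With RefSeq and GENCODE entries summed the share of all genes was 79.2%, and 4 of 6 lncRNAs passed. With locus sums for the lncRNAs it was again 79.2%, and 6 of 7 passed. The lines did not overlap for 4 of these 7, beside 74% of all genes. These shares are close to the background, so that a call between the lines says little about these lncRNAs as a group. H19, counted among those that passed in the last 2 sums, reached the required mean of 1 FPKM only through A498. Sizes say more: the median absolute log2 difference over the 12640 genes was 0.53, and the sizes for MALAT1, NEAT1 and MIR22HG by locus sum lay below it.

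Among the nuclear body RNAs, MALAT1 was 16.3, 9.87, 13.7 and 17.3 FPKM in A498 (NTC 1, NTC 2, siRNA 1, siRNA 2) and 19.02, 12.2, 23.5 and 15.7 FPKM in 786-O by locus sum. The lines overlapped widely, and NTC 2 was the lowest library of each. The log2 difference was -0.29 (95% interval -0.81 to 0.23, adjusted p = 0.26 in limma). With its GENCODE and RefSeq entries alone (hg19 chr11:65265233-65273940, plus strand) it was -0.02 (adjusted p = 0.94). The antisense transcript TALAM1 overlaps this span, and its reads cannot be told apart from those of MALAT1.

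NEAT1 was 21.7, 15.8, 20.7 and 20.2 FPKM in A498 and 27.3, 20.2, 37.1 and 26.1 FPKM in 786-O by locus sum. Only NTC 2 of 786-O lay inside the A498 range, and NTC 2 was again the lowest library of each line. The log2 difference was -0.47 (SE 0.16, adjusted p = 0.0283 in limma), so that NEAT1 was lower in A498, while the exact permutation test of the 4 against 4 libraries gave p = 0.0857, two-sided. The call was lost when any of 5 single libraries was left out, with adjusted p = 0.0837 without A498 NTC 2, 0.0723 without A498 siRNA 1, 0.0762 without A498 siRNA 2, 0.0818 without 786-O NTC 1 and 0.0679 without 786-O siRNA 1. Its RefSeq entry, the short NEAT1 transcript (hg19 chr11:65190269-65194003, plus strand), gave -0.25 (adjusted p = 0.136) and was LOWDATA in all 8 libraries. Most of the locus sum came from an assembled entry within that short transcript, at 12.7 to 16.6 FPKM in A498 and 16.1 to 31.3 FPKM in 786-O.

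The GENCODE entry of NEAT1 spans 22767 bases, the length of the long transcript that builds paraspeckles. It was 1.08, 0.0533, 0.798 and 1.11 FPKM in A498 and 0.0652, 0.153, 1.68 and 1.38 FPKM in 786-O. The highest library was 20.7 times the lowest in A498 and 25.7 times in 786-O, a spread that the locus sum did not have (1.37 and 1.83 times). The lines overlapped in this entry. Of the coding genes around NEAT1 and MALAT1, LTBP3 was higher in A498 (2.66, adjusted p = 2.4e-08) and FRMD8 differed by -0.04 (adjusted p = 0.59).

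Paraspeckle proteins were examined beside NEAT1. Of 12 tested, 11 were lower in A498 and none was higher, with a median log2 difference of -0.52, where the median of all genes was -0.02 and 41.4% of all genes were lower and 39.1% higher in A498. RBM14 (-0.73, adjusted p = 3.0e-07), SS18L1 (-0.70), DAZAP1 (-0.68) and TARDBP (-0.59) differed most. SFPQ, a core paraspeckle protein that binds NEAT1, was 73.6 to 79.6 FPKM in A498 and 109 to 117 FPKM in 786-O. Its partner NONO was 105 to 111 FPKM in A498 and 107 to 113 FPKM in 786-O, with a log2 difference of -0.02 (adjusted p = 0.54).

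PVT1 was higher in A498, and CRNDE and TUG1 were higher in 786-O. PVT1, whose GENCODE entry spans chr8:128806779-129113499 in hg19, was 134, 144, 131 and 118 FPKM in A498 (NTC 1, NTC 2, siRNA 1, siRNA 2) and 63.9, 57.0, 63.9 and 56.3 FPKM in 786-O by that entry. Every A498 library was above every 786-O library, and the mean was 2.18 times higher. The log2 difference with RefSeq and GENCODE entries was 1.12 (SE 0.07, adjusted p = 2.7e-06 in limma). MYC, 51.6 kb before PVT1, went the other way, at 41.3 to 43.5 FPKM in A498 and 44.1 to 53.8 FPKM in 786-O (-0.20, adjusted p = 0.0119).

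CRNDE was 8.31, 11.7, 8.63 and 10.4 FPKM in A498 and 27.8, 21.0, 25.0 and 24.3 FPKM in 786-O by its GENCODE entry (hg19 chr16:54952775-54963101, minus strand). The mean in 786-O was 2.51 times that in A498, and the lines did not overlap. The log2 difference was -1.33 (SE 0.13, adjusted p = 4.9e-05 in limma), and by locus sum -1.26 (adjusted p = 1.0e-05). IRX5, a homeobox gene that starts 1676 bases from CRNDE on the opposite strand, was 1.05, 1.249, 1.01 and 1.01 FPKM in A498 and 3.72, 3.71, 3.28 and 3.62 FPKM in 786-O. It was thus also higher in 786-O (-1.65, adjusted p = 2.4e-07). IRX3, a homeobox gene farther away in the same cluster, differed by -0.25 (adjusted p = 0.0019).

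The 250 bases before a CRNDE start listed by RefSeq are shown because CRNDE and its neighbour IRX5 were both higher in 786-O. That start was not matched to the deposited entries of CRNDE, which are in another build. The bases may therefore lie inside an entry rather than between CRNDE and IRX5. They come from RefSeq (GRCh38.p14, chr16:54928887-54929136, minus strand). Capitals mark matches to GGGCGG, the letters of the GC box bound by SP1, read on either strand as GGGCGG or CCGCCC. There were 3 matches, and 42.6% of 35116 promoters of this length hold at least 1. ACGTG, the core letters of hypoxia response elements (CACGT on the other strand), had no match here, against 18.5% of promoters with a match. The base composition was 80.0% G and C.
CRNDE promoter: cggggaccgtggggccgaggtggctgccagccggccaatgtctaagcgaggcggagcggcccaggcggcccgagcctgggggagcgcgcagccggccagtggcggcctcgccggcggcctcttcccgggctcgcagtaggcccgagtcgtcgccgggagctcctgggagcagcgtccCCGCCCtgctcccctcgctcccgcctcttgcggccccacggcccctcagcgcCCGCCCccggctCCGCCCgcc

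TUG1, which GENCODE v44 lists as protein coding, was 8.96, 9.09, 8.47 and 9.46 FPKM in A498 and 13.1, 12.6, 15.2 and 13.7 FPKM in 786-O by locus sum. The lines did not overlap, and the mean in 786-O was 1.52 times that in A498. The log2 difference was -0.60 (SE 0.06, adjusted p = 5.2e-05 in limma). By its GENCODE entry alone the lines overlapped, at 0.102 to 0.787 FPKM and 0.215 to 0.559 FPKM, and its mean was below the 1 FPKM required for a test. MORC2, which starts 471 bases away on the opposite strand, differed by 0.14 (adjusted p = 0.0206).

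Subunits of polycomb repressive complex 2 were read beside these RNAs. Of 11 tested, 6 were lower and 3 higher in A498, with a median log2 difference of -0.22. EZH2, the methyltransferase, was 12.5 to 13.1 FPKM in A498 and 26.4 to 30.1 FPKM in 786-O (-1.16, adjusted p = 2.3e-07). The histone-binding subunits RBBP4 (-0.98) and RBBP7 (-0.81) and the accessory subunit JARID2 (-0.84) were also lower in A498. The 3 higher in A498 were the accessory subunits PHF19, at 80.2 to 90.3 FPKM against 45.3 to 51.8 FPKM in 786-O (0.77, adjusted p = 7.3e-06), and PHF1 (0.73, adjusted p = 1.3e-06), and the core scaffold SUZ12 (0.18, adjusted p = 0.0189).

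The imprinted lncRNAs differed from each other. H19 was 2.22, 3.17, 2.70 and 1.89 FPKM in A498 by its GENCODE entry (hg19 chr11:2016406-2022700, minus strand) and was listed at 0 in all 4 libraries of 786-O. By locus sum it was 5.09, 5.20, 4.56 and 3.04 FPKM in A498, with every entry at 0 in 786-O. H19 reached the mean of 1 FPKM required for a test only through A498. Its passing (adjusted p = 7.7e-07 in limma) therefore adds no support to the listed values. No fold is given against values of 0, since the size of a fold would follow the pseudocount. IGF2, the paternally expressed neighbour 125.0 kb away, followed the same order at a low level, with 0.121 to 0.186 FPKM in A498 and 0 in 786-O. MRPL23, on the other side of H19, was 142 to 166 FPKM in A498 and 107 to 125 FPKM in 786-O (0.41, adjusted p = 3.2e-05).

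The 250 bases before an H19 start listed by RefSeq are given for the contrast with CRNDE, since H19 was listed at 0 in 1 line. They come from RefSeq (GRCh38.p14, chr11:2001267-2001516, minus strand), have 58.0% G and C, and hold neither GGGCGG nor ACGTG on either strand. That start was not matched to the deposited hg19 entries of H19, which differ in where they start, so the bases may lie inside an entry.
H19 promoter: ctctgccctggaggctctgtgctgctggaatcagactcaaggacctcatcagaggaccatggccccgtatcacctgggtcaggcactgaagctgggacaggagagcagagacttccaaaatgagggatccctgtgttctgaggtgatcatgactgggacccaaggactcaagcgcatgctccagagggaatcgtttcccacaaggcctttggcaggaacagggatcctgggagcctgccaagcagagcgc

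MEG3 was close to 0 throughout. Its GENCODE entry was 0.00147 to 0.0168 FPKM in A498 and 0.00153 to 0.0134 FPKM in 786-O, and 1 of its 15 RefSeq entries was above 0 in any library. A difference between the lines was not detectable at this depth (exact permutation test of the GENCODE entry, p = 0.943, two-sided). DLK1, the paternally expressed gene of the same domain, was listed at 0 in all 8 libraries, and the lncRNA MEG8 did not exceed 0.0991 FPKM.

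Imprinted genes elsewhere in the genome were read beside H19 and MEG3. Of 13 listed, 8 could be tested, and 3 were higher and 4 lower in A498, a share close to the 80.5% of all genes that passed. The median log2 difference was -0.69. SNRPN, a paternally expressed gene of chromosome 15, was 0.00 to 0.126 FPKM in A498 and 27.7 to 30.7 FPKM in 786-O, and it shares reads with SNURF, which lies on the same transcript. NDN, of the same domain, was 0.00 to 0.0161 FPKM in A498 and 16.5 to 18.7 FPKM in 786-O. CDKN1C, a maternally expressed cell cycle inhibitor, lies in the chromosome 11 region that also holds H19. It was 2.74 to 2.93 FPKM in A498 and 0.139 to 0.212 FPKM in 786-O. SNRPN, NDN and CDKN1C reached the mean of 1 FPKM required for a test only through 1 line. Their passing, included in the counts above, therefore adds no support to the listed values. The adaptor gene GRB10 was higher in A498 (2.21, adjusted p = 3.1e-06 in limma).

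MIR22HG, the host of miR-22, was 8.22, 7.99, 7.64 and 9.10 FPKM in A498 and 6.38, 6.14, 6.51 and 7.93 FPKM in 786-O by locus sum. Only siRNA 2 of 786-O lay inside the A498 range. The log2 difference was 0.29 (SE 0.08, adjusted p = 0.0132 in limma). Its RefSeq entries alone (hg19 chr17:1614798-1619566, minus strand) gave 0.62 (SE 0.24, adjusted p = 0.0475), a call that was lost when any of 5 single libraries was left out. The adjusted p was 0.0964 without A498 NTC 1, 0.129 without A498 siRNA 2, 0.117 without 786-O NTC 1, 0.116 without 786-O NTC 2 and 0.0992 without 786-O siRNA 2. WDR81, which starts 651 bases away on the opposite strand, was 12.3 to 15.5 FPKM in A498 and 4.63 to 5.34 FPKM in 786-O (1.42, adjusted p = 1.7e-06). TLCD2, the other neighbour listed, was 0.928 to 1.05 FPKM in A498 and 0.0671 to 0.0895 FPKM in 786-O.

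**Figure D4:**
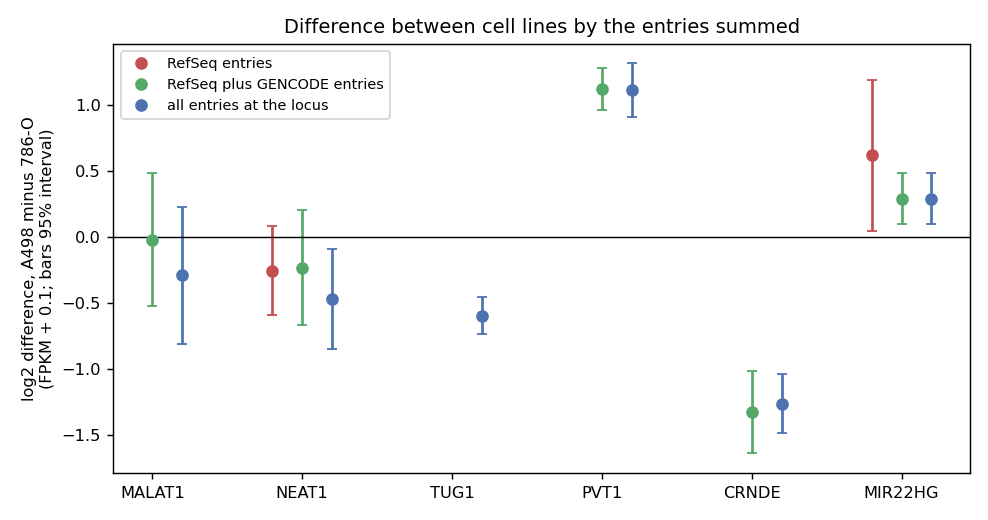
Log2 differences of A498 minus 786-O in FPKM plus 0.1 for 6 lncRNAs, by the entries that were summed (red RefSeq, green RefSeq plus GENCODE, blue all entries at the locus), with 95% intervals from limma. PVT1 (1.12 and 1.11) and CRNDE (-1.33 and -1.26) change little with the entries, TUG1 could be tested only by locus sum (-0.60), and NEAT1 and MIR22HG move with the choice.

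The processing machinery and other lncRNAs were listed for context. Of 13 factors of lncRNA biogenesis and turnover, 6 were higher and 6 lower in A498, with a median of -0.06. The exosome nuclease EXOSC10 (-1.06, adjusted p = 1.9e-06), the microRNA-processing nucleases DROSHA (-0.91) and DICER1 (-0.58) and the polyadenylation factor NUDT21 (-0.59), which with CPSF6 favours the short NEAT1 transcript, were lower in A498. Of 40 other named lncRNAs, 22 could be tested, 6 were higher and 9 lower in A498, with a median of 0.01. HCP5, in the HLA region, was 4.87 to 5.67 FPKM in A498 and at most 0.0674 FPKM in 786-O. It reached the mean of 1 FPKM required for a test only through A498. DLEU2 was 2.63 to 3.56 FPKM in A498 and 14.9 to 18.8 FPKM in 786-O. UCA1 (-6.06) and DANCR (-3.89, SE 0.95) were lower in A498, UCA1 against values near 0, where the size follows the pseudocount. DANCR by RefSeq sums was 0.000896, 0.90, 0.96 and 5.77 FPKM in A498 (NTC 1, NTC 2, siRNA 1, siRNA 2). In 786-O it was 11.2 to 15.2 FPKM. The size for DANCR thus also follows the pseudocount, and its A498 libraries differed widely from each other.

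The last question was whether the lncRNAs moved with SLINKY. The libraries of siRNA 1 and siRNA 2 were taken as replicates of the knockdown. The tests and intervals below therefore mix differences between the siRNAs with the spread between libraries. No lncRNA passed limma's test of the knockdown over both lines (0 of 2 by RefSeq sums and 0 of 7 by locus sums), within A498, within 786-O, or as a difference between the lines, and none had an unadjusted p below 0.05. Over all genes 0.0088% passed among RefSeq sums over both lines, 0.114% within A498, 0.0792% within 786-O and 0.141% for the difference between lines. In the table with locus sums these shares were 0.00791%, 0.087%, 0.0712% and 0.119%, so that a count of 0 was near the background. The log2 difference of knockdown minus NTC by locus sum was 0.30 for MALAT1 (95% interval -0.22 to 0.82), 0.27 for NEAT1 (-0.10 to 0.65), 0.08 for TUG1 (-0.07 to 0.22), -0.23 for H19 (-0.67 to 0.22), -0.03 for PVT1 (-0.23 to 0.18), 0.02 for CRNDE (-0.20 to 0.25) and 0.12 for MIR22HG (-0.08 to 0.31). The interval was narrowest for TUG1 and widest for MALAT1. By RefSeq sums the difference was -0.09 for NEAT1 (-0.43 to 0.25) and -0.0072 for MIR22HG (-0.58 to 0.57), both opposite in sign to the locus sum. With RefSeq and GENCODE entries summed it was 0.23 for MALAT1 (-0.27 to 0.73), -0.11 for H19 (-0.64 to 0.41), -0.08 for PVT1 (-0.24 to 0.07) and -0.01 for CRNDE (-0.33 to 0.30), the last again opposite in sign.

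Each siRNA library was also set singly against the NTC mean of its own line, counting log2 differences of 0.32 or more in either direction, which is the fold threshold of the study's own lists. Of the 8 lncRNAs with a mean of 1 FPKM or more by locus sum, 0 passed with siRNA 1 and 2 with siRNA 2 in A498, beside 8.14% and 10.1% of all genes. In 786-O 2 passed with siRNA 1 and 1 with siRNA 2, beside 9.81% and 8.12%. Between the NTC libraries of a line, 3 passed in A498 and 2 in 786-O, beside 8.93% and 9.05%. That comparison sets a single library against a single library, not against a mean, and so has the larger expected spread. None of the 8 passed with both siRNAs of a line.

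MALAT1 and NEAT1 had the largest of these differences in 786-O, at 0.58 and 0.64 with siRNA 1 and 0.01 and 0.13 with siRNA 2. In A498 they were 0.07 and 0.15 with siRNA 1 and 0.40 and 0.11 with siRNA 2. Between NTC 2 and NTC 1 the log2 difference was -0.72 for MALAT1 and -0.46 for NEAT1 in A498, and -0.64 and -0.43 in 786-O. MALAT1 thus differed more between the NTC libraries of a line than any siRNA library did from the NTC mean, and so did NEAT1 except with siRNA 1 in 786-O. These are unlike measures, since a difference between single libraries is expected to spread more than a difference from a mean. After the mean of each line was subtracted, the log2 locus sums of MALAT1 and NEAT1, 52.1 kb apart, had a Pearson correlation of 0.925 over the 8 libraries, and of 0.776 over the 6 libraries without NTC 2. The points share libraries and depth, and the correlation is a description.

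H19 was lower with siRNA 2 in A498 (-0.74, from 3.04 FPKM against 5.09 and 5.20 FPKM in the NTC libraries), while siRNA 1 gave -0.17. The adjusted p within A498 was 0.78 by limma. MANCR by locus sum was -0.03 and -0.06 in A498 and -0.19 and 0.02 in 786-O, and it did not show in the sum what NTC 2 showed in the RefSeq entry.

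**Figure D5:**
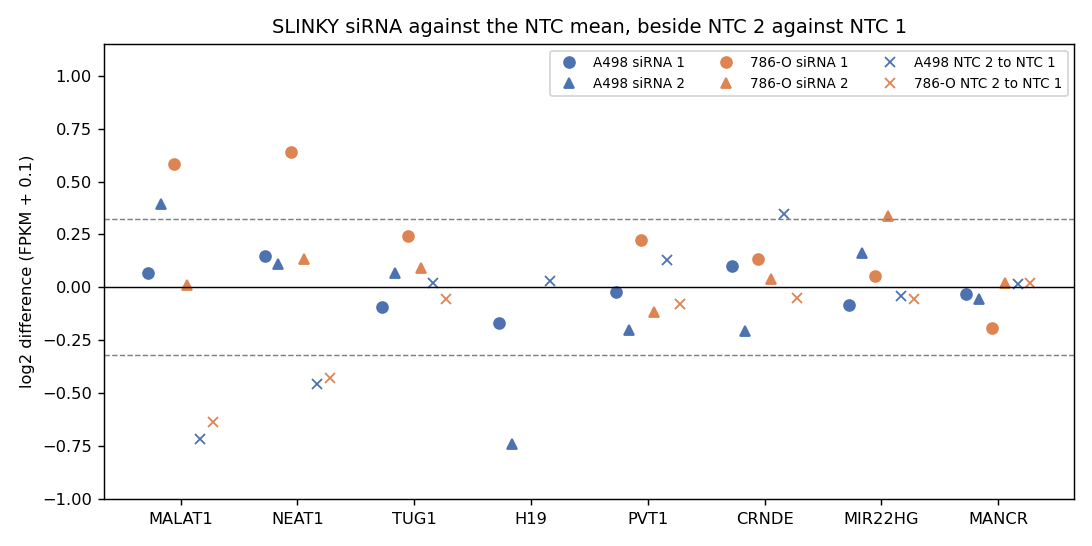
Log2 differences in locus sum (FPKM plus 0.1) of each SLINKY siRNA library from the NTC mean of its line (circles siRNA 1, triangles siRNA 2), beside NTC 2 against NTC 1 (crosses); blue is A498, orange 786-O, the dashed lines mark 0.32 in either direction, and H19 is not drawn for 786-O. The crosses of MALAT1 and NEAT1 lie between -0.72 and -0.43, and of their siRNA points only that of NEAT1 with siRNA 1 in 786-O (0.64) lies farther from 0 than the crosses of the same gene.

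For each tested lncRNA the genes with the most similar line-centred pattern over the 8 libraries were listed among 12234 others that span 200 bases or more. They were RP1-178F10.3 and LYSMD1 for MALAT1, PPM1M and TCF7L1 for NEAT1, ZBTB43 and HBEGF for TUG1, ENSG00000256448 and TTLL11 for H19, KTI12 and COX14 for PVT1, DNAAF10 and GTF3A for CRNDE, and IFIT3 and SUPT20H for MIR22HG. Pearson's r lay between 0.956 and 0.987. These are the highest of more than 10000 values each over 8 libraries that share depth and preparation, and they are a description.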

How the data were processed

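The authors made single-end reads from TruSeq libraries of total RNA, and the submitters' processing notes name TopHat2 2.0.0 and Cufflinks 2.0.2, with hg19 as the build. The deposited values are FPKM per entry with a 95% interval, for 43150 RefSeq, 13236 GENCODE lncRNA and 18992 assembled entries in each of 8 files, 1 per library. Strand and scaling between libraries are not given in the sources used here. No counts were used. RefSeq symbols came from a table of the GRCh38 assembly, used for names only (96.6% of entries matched). Coordinates of the entries are hg19, and gene spans are from GENCODE v44 on GRCh37.

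FPKM values were summed per symbol, values below 1e-06 were set to 0, and genes with a mean of at least 1 FPKM were tested on log2(FPKM + 0.1) with limma 3.58.1 in R 4.3.3 (trended variance, Benjamini-Hochberg). A fold change on this scale understates that of low genes. A locus sum took every noncoding entry of 200 bases or more with at least 50% of its length inside the span of the lncRNA and no other symbol. It was added after the data were seen. A lncRNA's test was taken from the first of the 3 sums in which it reached 1 FPKM, and locus sums are given beside it. MANCR was not tested between groups, and MEG3, below 1 FPKM, had only the exact permutation test. Exact permutation tests and figures used Python 3.11.15, numpy 2.4.6, pandas 2.3.3, scipy 1.17.1 and matplotlib 3.10.9. The fits were tested on simulated data: with 200 genes changed by 0.5 on the log2 scale among 10973, the knockdown over both lines recovered 184 with 10 false calls, and within A498 126 with 8. The simulated spread came from RefSeq genes, and both siRNAs acted alike. By locus sum the log2 SD in A498 was 0.0654 for TUG1 and 0.36 for MALAT1, beside a median of 0.0936 over all genes. These rates need not hold for a given lncRNA.

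Named were the 9 lncRNAs, their listed neighbours and microRNAs, up to 4 called genes with the largest difference from each list, SLINKY and the 2 most similar genes. SFPQ, NONO, SUZ12, PHF1, PHF19 and the marker genes outside that rule were named after their values were seen. The lncRNAs and lists were chosen with earlier results of these data known. The alternatives were other pseudocounts, no filter, median-ratio scaling, the highest entry per symbol, GENCODE entries added, single libraries left out, a replicate block, 1 arm only and the removal of short genes. The replicate block set NTC 1 and siRNA 1 against NTC 2 and siRNA 2, so that replicate and siRNA are mixed in it.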

Additional observations from a re-analysis of the deposited data

Results flagged for a closer look

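Within the 4 libraries of a line, 53 sets of values were examined for a library far from the others, and chance flags about 1 in 20 sets. The criterion was a gap to the nearest library, over the range of the 4, above Dixon's 95% critical value for 4 samples. MANCR's RefSeq entry was flagged for NTC 2 in A498 (25.4 FPKM) and for NTC 2 in 786-O (11.5 FPKM). These values chose the gene, so they had to meet the criterion and are a description only. RefSeq and GENCODE entries summed hold the same entry and were flagged for the same libraries, at 27.5 FPKM and 13.6 FPKM. The locus sum of MANCR was not flagged for NTC 2, and in 786-O it was flagged as low with siRNA 1, at 13.9 FPKM. MIR22HG's GENCODE entry was flagged as low in A498 NTC 1, at 4.51 FPKM, where its locus sum was 8.22 FPKM.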

How the results depend on the processing

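The log2 differences between the lines of PVT1, CRNDE, H19 and TUG1 kept their direction and their call under every alternative run, with TUG1 tested by locus sum. H19's size followed the pseudocount, from 1.79 to 7.94, and wherever the filter was used H19 met it only through A498. NEAT1 by RefSeq sums kept its direction, and its call appeared with the replicate block (-0.25, adjusted p = 0.0064) and with locus sums (-0.47, adjusted p = 0.0283). The block is no correction for replicates, since the number of a knockdown library is that of its siRNA. MIR22HG by RefSeq sums kept its direction (0.29 to 0.87) and lost its call under 11 of 19 alternatives, the replicate block among them (adjusted p = 0.0645), with adjusted p from 0.0132 to 0.339 over all. MALAT1, never called, changed sign with the NTC libraries alone (0.25) and ranged from -0.18 to 0.17 with single libraries left out. The number of tested lncRNAs whose lines did not overlap was 0 by RefSeq sums, 3 with RefSeq and GENCODE entries summed and 4 with locus sums, and 0 to 1 with single libraries left out. The count of genes between the lines was 9150, from 7784 with the knockdown libraries alone to 12620 without the filter, and 8819 to 8993 with single libraries left out.

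No lncRNA was called for the knockdown under any alternative run. The sign turned for NEAT1 with RefSeq and GENCODE entries summed (0.22) and with locus sums (0.27), for MIR22HG with the highest entry (0.076) and with either sum (0.12), and for CRNDE with locus sums (0.022). With single libraries left out the values ranged from -0.19 to 0.0084 for NEAT1, -0.14 to 0.22 for MIR22HG, -0.19 to 0.0087 for H19 and -0.10 to 0.093 for CRNDE. The count of genes over both lines was 1, 0 in limma without genes spanning under 200 bases (1312 at an unadjusted p below 0.05), and 1 to 3 with single libraries left out. Within A498 it was 13, 7 with a pseudocount of 1, 6 with 0.01, 28 without the filter and 12 to 38 with single libraries left out. Within 786-O it was 9, 5 with a pseudocount of 0.01 and 11 to 27 with single libraries left out. For the difference between lines it was 16, 7 with a pseudocount of 0.01, 28 without the filter, 9 with the replicate block and 28 to 38 with single libraries left out. The causes were not tested.

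The labels number the NTC libraries as replicates and the knockdown libraries by siRNA, so the number pairs no NTC with an siRNA library. Over 10973 genes, deviations from the group means were correlated between libraries that share a number. The values were 0.171 (A498 NTC with siRNA), 0.0227 (786-O), -0.147 (NTC across lines) and 0.157 (siRNA across lines). The block gave 9117 genes between the lines, 1 for the knockdown over both, 11 within A498 and 10 within 786-O, and changed no other call of a lncRNA than those named. A difference in MEG3, below 0.02 FPKM in every library, was not detectable at this depth, and DLK1 and the microRNA genes, listed at 0, gave no comparison.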
